A study of Mus musculus with 8 samples.

Results

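The 8 genes described here are markers and regulators of heart chamber formation: the natriuretic peptide genes *Nppa* and *Nppb*, the connexin genes *Gja1* and *Gja5*, the growth factor gene *Bmp10*, and the transcription factor genes *Irx4*, *Tbx2* and *Tbx3*. They were chosen by name, and all 8 were among the 24385 features of the deposited expression table. RNA sequencing was done on whole hearts of mouse embryos at embryonic day 8.5 (E8.5) and 9.5 (E9.5), with 2 libraries in each of 4 groups and 8 libraries in all. The cKO hearts, labelled Mesp1Cre/+; Dgcr8-/- in a C57BL/6 background, carried the deletion of *Dgcr8* in cells with Cre. *Dgcr8* encodes the RNA-binding partner of Drosha in microRNA (miRNA) processing. The hearts labelled wild type (WT, C57BL/6) came, by the study's methods, from embryos with *Dgcr8* loxP/loxP alleles and a *Rosa26* mT/mG reporter allele but without Cre. The cKO embryos had the same loxP alleles and reporter and also *Mesp1* Cre/+. They thus differed from the controls by the Cre allele too, which acts in the progeny of early *Mesp1*-expressing mesoderm and not in other cells of a dissected heart. How many hearts went into 1 library is not given in the sources used here.

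When the linear heart tube balloons into chambers, working myocardium at its outer curvature switches on atrial natriuretic peptide (*Nppa*), the fast-conducting connexins and trabecular genes. *Tbx2* and *Tbx3* encode T-box repressors that keep this program off in the atrioventricular canal and other primary myocardium, while TBX5, NKX2-5 and GATA4 activate it. Connexin 43 (*Gja1*) and connexin 40 (*Gja5*) form gap junctions, BMP10 is a ligand made by trabecular myocardium and needed for its growth, and *Irx4* is restricted to ventricular myocardium.

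*Nppa* and *Nppb* lie beside each other on chromosome 4, with 13516 bp between their loci in the table, and they were the members with the largest differences between libraries. Their promoters are therefore shown, from 250 bases before to 50 after the RefSeq start, read 5′ to 3′ on the plus strand of GRCm38.p6. Capitals mark matches to short motifs on either strand, none of which overlap. For GATA factors the letters searched were GATAA. For NK2 factors such as NKX2-5, the core AAGTG was used. A site bound by T-box factors was searched as GGTGTGA, and the TATA box as TATAAA.
*Nppa* (chr4:148000472-148000771): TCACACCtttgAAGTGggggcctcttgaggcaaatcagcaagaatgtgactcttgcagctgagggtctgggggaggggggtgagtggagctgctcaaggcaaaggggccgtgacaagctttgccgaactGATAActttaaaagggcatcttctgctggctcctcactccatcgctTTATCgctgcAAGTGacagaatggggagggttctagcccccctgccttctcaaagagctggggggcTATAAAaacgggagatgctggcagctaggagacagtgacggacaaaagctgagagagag
*Nppb* (chr4:147985650-147985949): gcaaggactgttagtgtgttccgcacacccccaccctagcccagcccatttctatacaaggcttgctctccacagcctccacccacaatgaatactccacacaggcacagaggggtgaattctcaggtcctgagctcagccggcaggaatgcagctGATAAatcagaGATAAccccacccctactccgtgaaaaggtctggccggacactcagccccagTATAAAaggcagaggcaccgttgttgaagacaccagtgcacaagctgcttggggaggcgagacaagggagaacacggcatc

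Both windows held 2 GATAA matches and a TATAAA match. The TATAAA match began at -9 from the RefSeq start in *Nppa* and at -31 in *Nppb*. In *Nppa* the GATAA matches began at -121 and -75 from the start, the AAGTG matches at -239 and -65, and the GGTGTGA match, on the minus strand, at -250. In *Nppb* the GATAA matches began at -94 and -83, and neither AAGTG nor GGTGTGA was found in the window. Of 32851 RefSeq promoter windows of this length, GATAA was in 25.41%, AAGTG in 46.38%, TATAAA in 13.62% and GGTGTGA in 3.98%. Among the 6 members with an entry (all but *Tbx2* and *Tbx3*), GATAA was found in *Nppa*, *Nppb*, *Gja1* and *Bmp10*, AAGTG in *Nppa* and *Gja5*, and GGTGTGA in *Nppa*. These are matches of letters and were not tested for binding.

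All values are FPKM, fragments per kilobase of transcript scaled to the fragments of the library, which allows levels of different genes to be compared per length. The 10018 genes that averaged 1 FPKM or more over the libraries, among them 7 of the 8 members (all but *Tbx2*), were compared with limma on log2(FPKM + 1), and a gene was called at a Benjamini-Hochberg adjusted p under 0.05 with at least 1.5-fold change. Beside this, genes were counted whose libraries did not overlap between groups and differed by at least 1.5-fold, a count without a test. On the log2(FPKM + 1) scale the change of a gene of a few FPKM is understated. Relative depth of the libraries differed by at most 1.45-fold, and the absolute depth was unknown. Over all tested genes the median log2 change was -0.07 between cKO and WT at E9.5 and -0.28 at E8.5, and between the stages it was -0.84 in WT and -0.64 in cKO. A change relative to the median gene is the change with this median taken off, and it is given beside most changes of the tested members at E8.5 and between the stages. The larger share of lower genes at E8.5 and between the stages depended on the scaling, and the counts under other scalings are given with those comparisons.

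*Dgcr8*, the targeted gene, had 7.10 and 8.60 FPKM (E8.5) and 3.49 and 3.23 (E9.5) in WT hearts, against 1.64 and 4.67 (E8.5) and 1.15 and 1.77 (E9.5) in cKO hearts. It was lower in both cKO libraries than in both WT libraries of each stage, but E8.5 cKO replicate 2 was above both E9.5 WT libraries. All 10 listed cardiomyocyte markers were above 1 FPKM in every library. Their summed FPKM ran from 14620 to 22630 (WT) and 19940 to 30530 (cKO) at E8.5, and from 37130 to 39460 (WT) and 50850 to 51760 (cKO) at E9.5. It was thus higher in both E9.5 cKO libraries than in both E9.5 WT libraries, and higher at E9.5 than at E8.5. Most of the sum was *Actc1*, at 19433 and 20165 FPKM in E9.5 WT, against 27813 and 30146 in E9.5 cKO, and the list did not move as one. *Myh6* was lower in E9.5 cKO without overlap (916.0 and 777.3 in WT, 424.2 and 567.0 in cKO), and *Tnnt2*, *Myl3* and *Actn2* overlapped. In whole hearts, fewer cells of a type and less RNA per cell cannot be told apart. Decidual (maternal) markers summed to between 10.8 and 5148 FPKM in the E8.5 libraries, highest in E8.5 cKO replicate 2 and lowest in E8.5 cKO replicate 1, and to at most 7.34 at E9.5. Features shorter than 300 bp held 38.6% and 50.5% of the summed FPKM in the E8.5 cKO libraries, against 15.7% and 16.2% in the E8.5 WT libraries, so this share moved with genotype at E8.5. With the libraries rescaled to the sum of the longer features, the log2 changes between genotypes at E8.5 were -1.41 for *Gja5*, -0.70 for *Bmp10* and -1.35 for *Tbx3*. Under this scaling the median gene stood at -0.37. With median-ratio scaling, where the median gene stood at 0.03, the changes were -0.96, -0.39 and -0.91.

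**Figure D1:**
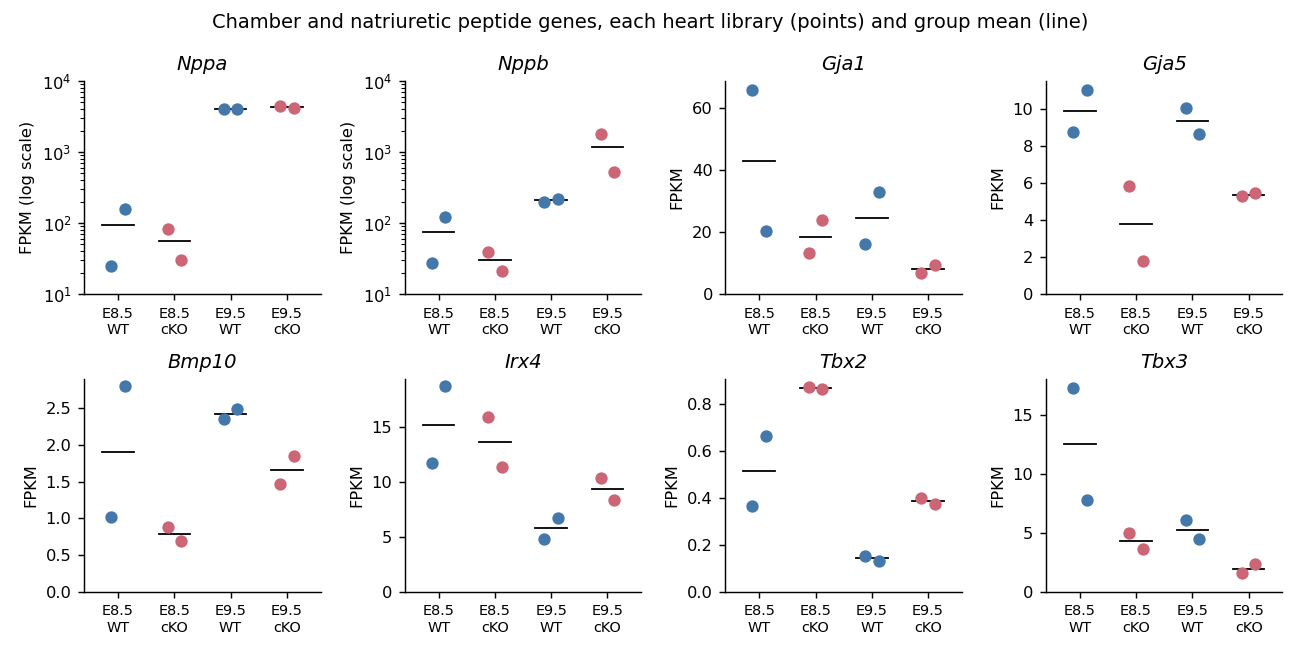
FPKM of the 8 genes in each library, with points for libraries (blue WT, red cKO) and black lines for group means of 2 libraries. The y axis is logarithmic for *Nppa* and *Nppb* and linear from 0 for the others. *Nppa* lies between 3973 and 4381 FPKM in the 4 E9.5 libraries, while *Nppb* separates E9.5 cKO from E9.5 WT.

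*Nppa*, which encodes atrial natriuretic peptide and is the classic marker of chamber myocardium (chr4:148000722-148002074 in the table), rose steeply from E8.5 to E9.5 in both genotypes. WT hearts gave 25.1 and 159.8 FPKM (E8.5) and 3973 and 4075 (E9.5), and cKO hearts 82.6 and 30.2 (E8.5) and 4381 and 4167 (E9.5). The E8.5 libraries spread over a wide range within each genotype, and the 4 E9.5 libraries lay close together. Among all features *Nppa* ranked between 729 and 3016 by FPKM at E8.5 and between 39 and 49 at E9.5. The log2 change from E8.5 to E9.5 was 5.96 ± 0.78 (SE) in WT (limma adjusted p = 0.00940) and 6.39 ± 0.78 in cKO (adjusted p = 0.0148), and both were called. Relative to the median gene these changes were 6.79 and 7.02. The WT call was lost without E9.5 WT replicate 1 (log2 change 5.98), and the cKO call without E9.5 cKO replicate 1 (6.35) or 2 (6.42).

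Between the genotypes *Nppa* was not called. At E9.5 both cKO libraries were above both WT libraries, by 1.06-fold between the means. These means were 4274 ± 151 FPKM in cKO and 4024 ± 71.8 in WT (SD, n = 2), a log2 change of 0.09 ± 0.78 (limma adjusted p = 0.983). At E8.5 the ranges overlapped, with a log2 change of -0.34 ± 0.78 (adjusted p = 0.865; relative to the median gene -0.06). The sign at E8.5 moved with the libraries used: the change was 0.97 without E8.5 WT replicate 2, 0.37 without E8.5 cKO replicate 2 and -1.65 without E8.5 WT replicate 1.

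*Nppb*, which encodes B-type natriuretic peptide and is known as a gene induced by wall stress (chr4:147985788-147987205), rose with stage in cKO hearts, and it was the member with the largest difference between genotypes at E9.5. The WT libraries had 27.7 and 123.4 FPKM at E8.5 and 198.7 and 217.5 at E9.5. The cKO libraries had 38.9 and 21.1 FPKM at E8.5 and 1814 and 517.4 at E9.5. Both E9.5 cKO libraries were above both E9.5 WT libraries, and they differed from each other by more than the WT libraries did. The group means at E9.5 were 1166 ± 917 FPKM in cKO and 208.1 ± 13.3 in WT (SD, n = 2), a ratio of 5.60. The log2 change was 2.22 ± 0.77 (limma adjusted p = 0.228), which was not called. It was 1.31 without E9.5 cKO replicate 1 and 3.12 without E9.5 cKO replicate 2. The former, which had the highest *Nppb*, also had 54.5% of its summed FPKM in features shorter than 300 bp, against 18.3% to 22.4% in the other E9.5 libraries. With the libraries rescaled to the sum of the longer features the change was again 2.22. These sums were similar in the E9.5 libraries (845720 to 952620 FPKM), so this rescaling could alter the change little. It does not test the part of the short features.

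At E8.5 the *Nppb* ranges overlapped between genotypes, and the log2 change was -1.01 ± 0.77 (adjusted p = 0.635; relative to the median gene -0.73). It was -2.07 without E8.5 WT replicate 1 and 0.051 without E8.5 WT replicate 2. Between stages the log2 change was 1.81 ± 0.77 in WT (adjusted p = 0.0786, not called) and 5.03 ± 0.77 in cKO (adjusted p = 0.0160, called), and relative to the median gene 2.64 and 5.67. The WT change was 0.75 without E8.5 WT replicate 1 and 2.87 without E8.5 WT replicate 2. The call in cKO was lost without E9.5 cKO replicate 1 (4.13) or 2 (5.93). The difference between these changes, tested as the interaction of stage and genotype, was 3.22 ± 1.08 on the log2 scale (unadjusted p = 0.0178 and limma adjusted p = 0.656 over 10018 genes). It ranged from 2.16 to 4.28 when each library was left out. None of the 7 tested members was called in the interaction by limma, beside 0.0399% of all tested genes. At an unadjusted p under 0.05 there was 1 member, *Nppb*, beside 570 higher and 149 lower of 10018 genes (377 and 299 with median-ratio scaling).

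The balance of the natriuretic peptides moved with these values. At E8.5 *Nppb* made up 52.5% and 43.6% of the summed *Nppa* and *Nppb* FPKM in the WT libraries and 32.0% and 41.1% in the cKO libraries. At E9.5 its share was 4.76% and 5.07% in WT and 29.3% and 11.1% in cKO. The share was thus lower in all 4 E9.5 libraries than in all 4 E8.5 libraries, and within E9.5 it was higher in both cKO libraries. Since the shares come from the same 2 genes within a library, a single scaling factor for each library does not alter them.

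**Figure D2:**
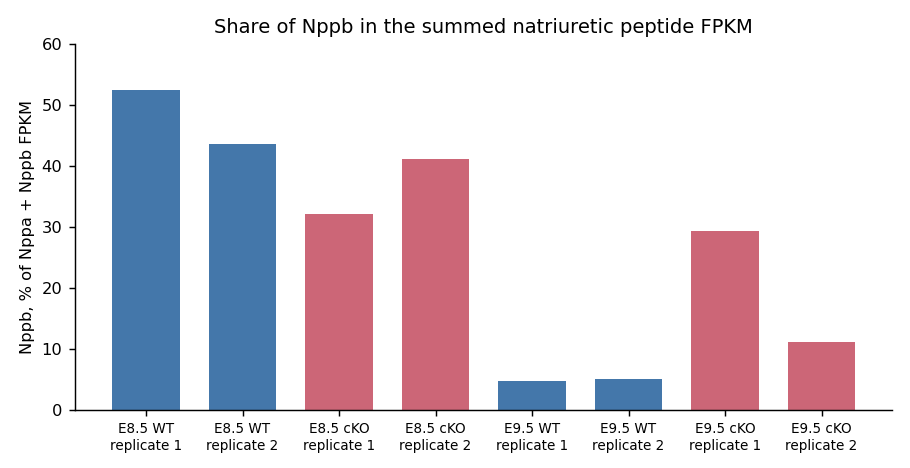
*Nppb* as a percentage of the summed *Nppa* and *Nppb* FPKM, 1 bar per library (blue WT, red cKO). At E9.5 the bars stand at 4.76% and 5.07% in WT and at 29.3% and 11.1% in cKO.

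Of 7 listed genes for processing and sensing natriuretic peptides, only *Npr1* and *Furin* were tested, and neither was called between genotypes. *Npr1*, the receptor for both peptides, was at 2.02 and 1.45 FPKM in E9.5 WT, against 4.23 and 3.07 in E9.5 cKO (log2 change 0.76, adjusted p = 0.322). *Corin*, the protease that cleaves the *Nppa* precursor, was below the filter, at 1.63 and 1.22 FPKM in E9.5 WT, against 0.429 and 0.375 in E9.5 cKO. Its libraries thus did not overlap at E9.5, and it was not tested. *Furin*, a proprotein convertase, was called lower in WT with stage (-0.93, adjusted p = 0.0462), a change of -0.09 relative to the median gene.

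*Gja1* (chr10:56377300-56390419), the gene of connexin 43, was lower in the cKO hearts at E9.5 without overlap. WT hearts gave 65.9 and 20.4 FPKM (E8.5) and 16.1 and 32.9 (E9.5), and cKO hearts 13.1 and 24.0 (E8.5) and 6.91 and 9.51 (E9.5). The E8.5 ranges overlapped, and the WT libraries differed from each other at both stages. The mean at E9.5 was 24.5 ± 11.9 FPKM in WT and 8.21 ± 1.84 in cKO (SD, n = 2), 2.99-fold lower in cKO. The log2 change of -1.40 ± 0.58 had a limma adjusted p of 0.298 and was not called; it was -0.91 without E9.5 WT replicate 2 and -1.90 without E9.5 WT replicate 1. At E8.5 it was -1.01 ± 0.58 (adjusted p = 0.596; relative to the median gene -0.73). This value became -0.19 without E8.5 WT replicate 1 and -1.83 without E8.5 WT replicate 2. Averaged over both stages it was -1.21 ± 0.41 (adjusted p = 0.188), and -0.80 without E8.5 WT replicate 1. Between stages the *Gja1* change was -0.65 in WT and -1.04 in cKO, neither called. The WT stage change ranged from -1.47 to 0.17 when each library was left out.

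*Gja5* (chr3:97032402-97053634), the gene of connexin 40, an early chamber myocardium and later fast conduction and atrial connexin, was lower in cKO without overlap at both stages. The WT libraries had 8.74 and 11.0 FPKM at E8.5 and 10.1 and 8.63 at E9.5. The cKO libraries had 5.82 and 1.78 FPKM at E8.5 and 5.26 and 5.42 at E9.5. All 4 cKO libraries were below all 4 WT libraries. Its log2 change was -1.31 ± 0.40 at E8.5 (adjusted p = 0.590; relative to the median gene -1.03), -0.70 ± 0.40 at E9.5 (adjusted p = 0.446) and -1.01 ± 0.28 averaged over stages (adjusted p = 0.151), so it was not called in any of these. Without E8.5 cKO replicate 2, which had the lowest *Gja5* and the highest decidual sum, the E8.5 change was -0.67. Between stages the WT change was -0.07 and the cKO change 0.54, neither called, and relative to the median gene 0.77 and 1.18. Without E8.5 cKO replicate 1 the cKO change was 1.19 (adjusted p = 0.0200) and was called.

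The connexins were not in a fixed proportion. The ratio of *Gja1* to *Gja5* FPKM ran from 1.31 in E9.5 cKO replicate 1 to 13.5 in E8.5 cKO replicate 2. It overlapped between genotypes at both stages.

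None of the 9 tested of 11 listed genes for gap junctions and their adhesion partners was called between genotypes at either stage. Their median log2 change at E9.5 was 0.21, against -0.07 for all tested genes. *Jup* (plakoglobin) was at 12.6 and 11.0 FPKM in E9.5 WT, against 24.9 and 17.6 in E9.5 cKO (log2 change 0.79, adjusted p = 0.213). *Pkp2* (plakophilin 2) was at 4.63 and 4.73 in WT and 12.1 and 9.25 in cKO (1.03, adjusted p = 0.227). *Gjc1*, the gene of connexin 45, was at 1.66 and 2.21 in WT and 2.02 and 1.69 in cKO, with overlap. *Gja4* (connexin 37, an arterial endothelial connexin) also overlapped, at 12.1 and 15.3 in WT and 14.0 and 18.2 in cKO.

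*Bmp10* (chr6:87428994-87434512) was low throughout, and its cKO libraries were below the WT libraries of the same stage. WT hearts gave 1.02 and 2.80 FPKM (E8.5) and 2.36 and 2.48 (E9.5), and cKO hearts 0.885 and 0.686 (E8.5) and 1.46 and 1.85 (E9.5). The E9.5 means were 2.42 ± 0.0876 FPKM in WT and 1.66 ± 0.272 in cKO (SD, n = 2), 1.46-fold lower in cKO. The log2 change was -0.37 ± 0.31 at E9.5 (adjusted p = 0.640) and -0.63 ± 0.31 at E8.5 (adjusted p = 0.590; relative to the median gene -0.35). At E8.5 most of the difference came with E8.5 WT replicate 2, without which the change was -0.18. Between stages its change was 0.31 in WT and 0.57 in cKO, and relative to the median gene 1.14 and 1.21, none of them called. The WT change was -0.15 without E8.5 WT replicate 1 and 0.76 without E8.5 WT replicate 2.

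Among 13 tested of 16 listed BMP10 receptors, relatives and response genes, none was called between genotypes. The median log2 change at E9.5 was 0.21, against -0.07 for all tested genes. The *Id* genes, direct transcriptional targets of BMP signaling, had the lowest changes of the list: *Id3* was at 670.3 and 332.3 FPKM in E9.5 WT, against 119.9 and 174.9 in E9.5 cKO (log2 change -1.70, adjusted p = 0.136), and *Id1* at 116.6 and 127.9 against 57.1 and 53.7 (-1.13, adjusted p = 0.216). *Acvrl1*, the endothelial receptor of BMP10, was at 1.10 and 1.40 in E9.5 WT, against 2.28 and 2.27 in E9.5 cKO (0.54, adjusted p = 0.323). At E8.5 it went the other way without overlap, at 4.67 and 3.74 in WT and 2.60 and 1.79 in cKO. That log2 change was -0.71 (limma adjusted p = 0.590), and relative to the median gene -0.43. The summed endothelial markers stood at 66.1 to 72.0 FPKM in E9.5 WT and 88.5 to 89.7 in E9.5 cKO with all 8 above 1 FPKM. Of these, *Pecam1* (means of 11.7 against 25.3), *Tie1* (12.6 against 24.4) and the scarce *Nfatc1* were higher in E9.5 cKO without overlap. *Tek* was lower without overlap (5.50 and 6.94 against 4.45 and 3.51), and *Kdr*, *Cdh5*, *Emcn* and *Cldn5* overlapped. The part of these cells in the *Acvrl1* values was not tested. *Cdkn1c*, a cell cycle inhibitor kept in check by BMP10, overlapped between genotypes at E9.5 (92.0 and 58.9 in WT, 94.2 and 47.0 in cKO).

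**Figure D3:**
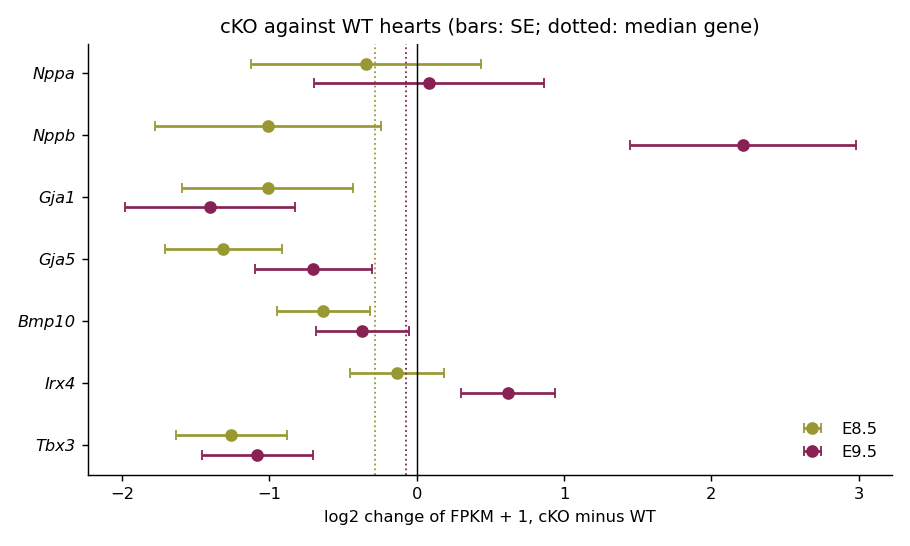
log2 change of FPKM + 1 between cKO and WT hearts (x axis) for the 7 tested members at E8.5 (olive) and E9.5 (purple), with bars for the limma SE and dotted lines for the median of all tested genes. *Nppb* at E9.5 stands at 2.22, *Gja1*, *Gja5*, *Bmp10* and *Tbx3* stand left of the median gene at both stages (at E8.5, *Gja1* not without E8.5 WT replicate 1 and *Bmp10* not without E8.5 WT replicate 2), and none of the points was called.

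*Irx4* (chr13:73260497-73269620), which encodes the Iroquois factor that activates ventricular and represses atrial myosin genes, fell with stage in WT hearts. The WT libraries had 11.7 and 18.7 FPKM at E8.5 and 4.81 and 6.73 at E9.5. The cKO libraries had 15.9 and 11.3 FPKM at E8.5 and 10.4 and 8.34 at E9.5. All 4 E9.5 libraries were below all 4 E8.5 libraries, and at E9.5 both cKO libraries were above both WT libraries. The WT change of -1.24 ± 0.32 on the log2 scale was called (limma adjusted p = 0.0206), while the cKO change of -0.48 ± 0.32 was not (adjusted p = 0.253; -0.26 without E8.5 cKO replicate 1). Their difference had an adjusted p of 0.766. Most of the fall was shared by the median gene: relative to it the *Irx4* change was -0.40 in WT and 0.15 in cKO, and with median-ratio or quantile scaling the WT call was lost (-0.34 and -0.23) and the cKO change turned positive (0.21 and 0.28). The WT call was also lost without E8.5 WT replicate 1 (-1.55), E8.5 WT replicate 2 (-0.92) or E9.5 WT replicate 1 (-1.03). At E9.5 the change between cKO and WT was 0.62 ± 0.32 (adjusted p = 0.393), with means of 9.35 ± 1.43 and 5.77 ± 1.36 FPKM (SD, n = 2). At E8.5 this change was -0.13, and the ranges overlapped.

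The other chamber genes of the lists did not share one pattern. Of 16 listed chamber and chamber identity genes 10 were tested and none was called between genotypes, with a median log2 change of -0.20 at E9.5. From E8.5 to E9.5, *Myl2* (ventricular myosin light chain) and *Pln* (phospholamban, a brake on the calcium pump) were called higher in both genotypes and *Irx3* was called lower in both. The *Irx3* changes were -1.33 in WT and -1.22 in cKO, and relative to the median gene -0.49 and -0.58, where 46.7% and 28.5% of all tested genes were called lower. *Myl2* went from 627.2 and 1295 FPKM to 8583 and 15492 in WT, and from 1879 and 744.6 to 7081 and 12091 in cKO. Its log2 change was 3.68 in WT (adjusted p = 0.0110) and 2.97 in cKO (adjusted p = 0.0162). At E9.5 the *Myl2* ranges overlapped between genotypes. *Smpx*, a chamber myocardium gene, was at 172.7 and 312.2 FPKM in E9.5 WT, against 82.6 and 155.7 in E9.5 cKO, without overlap (-1.03, adjusted p = 0.356).

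*Tbx3* (chr5:119670862-119684724) was below the WT level in cKO hearts of both stages, and in each genotype it was lower at the later stage. WT hearts gave 17.3 and 7.74 FPKM (E8.5) and 6.07 and 4.44 (E9.5), and cKO hearts 4.99 and 3.64 (E8.5) and 1.57 and 2.35 (E9.5). None of these 4 comparisons overlapped. The cKO mean was 2.89-fold lower at E8.5 and 2.69-fold lower at E9.5. The log2 change between genotypes was -1.26 ± 0.38 at E8.5 (adjusted p = 0.590; relative to the median gene -0.98; -0.73 without E8.5 WT replicate 1), -1.08 ± 0.38 at E9.5 (adjusted p = 0.230) and -1.17 ± 0.27 averaged over stages (unadjusted p = 0.00234, limma adjusted p = 0.143). The last was the smallest p of the tested members in that comparison, and it was not called. The stage changes were -1.03 in WT (adjusted p = 0.0531) and -0.85 in cKO (adjusted p = 0.113), and relative to the median gene -0.19 and -0.21. The WT change was -0.49 without E8.5 WT replicate 1 and -1.56 without E8.5 WT replicate 2.

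*Tbx2* (chr11:85832615-85841948) was below 1 FPKM in all 8 libraries and ran opposite to *Tbx3* between genotypes. The WT libraries had 0.365 and 0.663 FPKM at E8.5 and 0.153 and 0.133 at E9.5. The cKO libraries had 0.872 and 0.867 FPKM at E8.5 and 0.401 and 0.374 at E9.5. Both cKO libraries were above both WT libraries at each stage, by 1.69-fold between the means at E8.5 and 2.71-fold at E9.5. Fitted without the filter on low values, its log2(FPKM + 1) change was 0.28 ± 0.11 at E9.5 (limma adjusted p = 0.473) and 0.31 ± 0.11 at E8.5 (adjusted p = 0.551), not called. A value under 1 FPKM rests on few fragments, and their number was unknown. *Tbx3* was above *Tbx2* in every library, by 11.7- to 47.3-fold in the 4 WT libraries and by 3.91- to 6.27-fold in the 4 cKO libraries. This ratio lies within a library and is not altered by a single scaling factor for each library; it was chosen after the values were seen and was not tested.

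**Figure D4:**
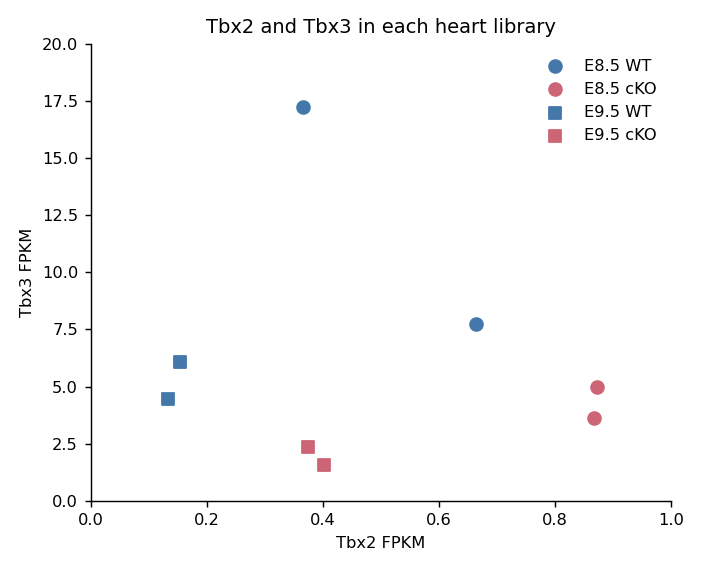
FPKM of *Tbx2* (x axis) against *Tbx3* (y axis) in the 8 libraries, with circles for E8.5, squares for E9.5, blue for WT and red for cKO. Within each stage the red points lie right of and below the blue points.

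The T-box list and the genes of the atrioventricular canal, where *Tbx2* and *Tbx3* act, gave no call between genotypes. Of 11 listed corepressors, relatives and known targets of these repressors 6 were tested, with a median log2 change of -0.29 at E9.5. *Cdkn1a*, a cell cycle inhibitor gene and a known target of both repressors, was at 4.19 and 4.35 FPKM in E9.5 WT, against 24.6 and 24.4 in E9.5 cKO (log2 change 2.28 ± 0.34, adjusted p = 0.0648). *Ndrg1*, a stress-responsive gene repressed by *Tbx2* in other tissues, was at 2.95 and 0.776 in WT and 26.1 and 13.2 in cKO (2.89 ± 0.53, adjusted p = 0.0895). Their libraries did not overlap at E9.5, and both rose from E8.5 to E9.5 in cKO (adjusted p = 0.0210 and 0.0463). The other tested genes of the list, *Hdac1*, *Hdac2*, *Tle3* and *Egr1*, had changes between genotypes of -0.89 to -0.17 at E9.5. The corepressor genes *Hdac2* and *Tle3* were called lower between stages in cKO (-1.55, adjusted p = 0.0464, and -1.11, adjusted p = 0.0430; relative to the median gene -0.91 and -0.48), beside 28.5% of all tested genes. *Tle3* was called lower in WT too (-1.05, adjusted p = 0.0373; relative to the median gene -0.22), beside 46.7%. Of 12 listed atrioventricular canal and conduction genes 9 were tested, with a median log2 change of -0.64 at E9.5 against -0.07 for all tested genes. *Id2*, a gene of the developing conduction system, was at 517.6 and 332.1 FPKM in E9.5 WT, against 65.0 and 183.2 in E9.5 cKO (-1.91 ± 0.47, adjusted p = 0.129). *Bmp2*, the inducer of *Tbx2* in the canal, overlapped at E9.5, at 10.8 and 3.26 in WT and 3.82 and 2.99 in cKO. *Bmp4* was at 7.05 and 13.2 in WT and 4.04 and 5.33 in cKO, without overlap (-0.92, adjusted p = 0.247). *Has2*, the hyaluronan synthase of the cardiac jelly, was called lower from E8.5 to E9.5 in both genotypes (-3.51 in WT, adjusted p = 0.00884, and -3.09 in cKO, adjusted p = 0.0160; relative to the median gene -2.67 and -2.45).

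The activators of the chamber program, TBX5, NKX2-5, GATA4 and their partners, were not called between genotypes: none of 12 tested of 13 listed genes passed, with a median log2 change of 0.17 at E9.5 and -0.04 at E8.5. *Tbx5* was at 13.3 and 7.86 FPKM in E9.5 WT, against 11.0 and 9.56 in E9.5 cKO, a log2 change of 0.00 ± 0.32. *Nkx2-5* was at 28.8 and 18.4 in E9.5 WT, against 51.7 and 35.9 in E9.5 cKO, without overlap (0.87, adjusted p = 0.659). *Gata4* overlapped, at 7.80 and 2.28 against 9.37 and 4.83. With stage, 5 of the 12 were called lower in WT and 3 in cKO (*Mef2c*, *Tbx20* and *Smarcd3* in both), beside 46.7% and 28.5% of all tested genes.

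At E9.5, limma called 0 of the 7 tested members between cKO and WT, beside 0.180% of all tested genes. At an unadjusted p under 0.05 there were 3, *Nppb*, *Gja1* and *Tbx3*, beside 509 higher and 1001 lower of 10018 genes. With median-ratio scaling there were 3 members, beside 869 higher and 743 lower genes, and with quantile normalization 2 members, beside 734 and 714. By the count of groups that did not overlap, 2 members were higher (*Nppb* and *Irx4*) beside 8.63% of all tested genes, and 3 were lower (*Gja1*, *Gja5* and *Tbx3*) beside 13.8%. At E8.5 limma called 0 of 7, beside 0.00998% of all, and at an unadjusted p under 0.05 there were 2, *Gja5* and *Tbx3*, beside 24 higher and 691 lower. This split moved with scaling, to 133 higher and 85 lower with median-ratio scaling and to 93 and 117 with quantile normalization. Without overlap, 0 members were higher beside 0.439%, and 3 were lower (*Gja5*, *Bmp10* and *Tbx3*) beside 11.9%; after median-ratio or quantile scaling *Bmp10* was no longer among them, and the lower share of all genes was 1.58% or 2.11%. Averaged over the stages limma called 0 of 7 beside 0.0399% of all, and *Gja1*, *Gja5* and *Tbx3* had an unadjusted p under 0.05, beside 148 higher and 957 lower of all genes (459 and 313 with median-ratio scaling).

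Between the stages in WT, limma called 1 member higher (*Nppa*) beside 1.40% of all tested genes, and 1 lower (*Irx4*) beside 46.7%. In cKO it called 2 higher (*Nppa* and *Nppb*) beside 2.05% and 0 lower beside 28.5%. The share of lower genes is thus large among all genes, and a lower value at E9.5 is common in this table. With median-ratio scaling the calls over all genes were 321 higher and 69 lower in WT, and 400 higher and 77 lower in cKO. Without overlap and at 1.5-fold, *Nppa* and *Nppb* were higher in both genotypes, beside 2.80% of all genes in WT and 4.27% in cKO. *Irx4* and *Tbx3* were lower in WT beside 66.9%, and *Gja1* and *Tbx3* in cKO beside 50.6%. After median-ratio or quantile scaling, 4 members were higher in each genotype (*Nppa*, *Nppb*, *Gja5* and *Bmp10*) and 0 were lower. The share of all tested genes that were higher was then 15.4% in WT and 17.5% in cKO with median-ratio scaling, and 11.8% and 17.1% with quantile normalization. With the genotypes combined, 4 E9.5 against 4 E8.5 libraries, the two-sided exact permutation test gave p = 0.0286, the smallest it can give here, for *Nppa*, *Nppb* and *Irx4*. Of all tested genes 1.91% were higher in all 4 E9.5 libraries than in all 4 E8.5 libraries, as *Nppa* and *Nppb* were, and 46.1% were lower in the same way, as *Irx4* was, so the separation of *Irx4* was common in this table. The other p-values of the exact test were 0.0857 for *Tbx2*, 0.143 for *Tbx3*, 0.2 for *Bmp10*, 0.286 for *Gja1* and 0.8 for *Gja5*, none adjusted for the 8 tests made.

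**Figure D5:**
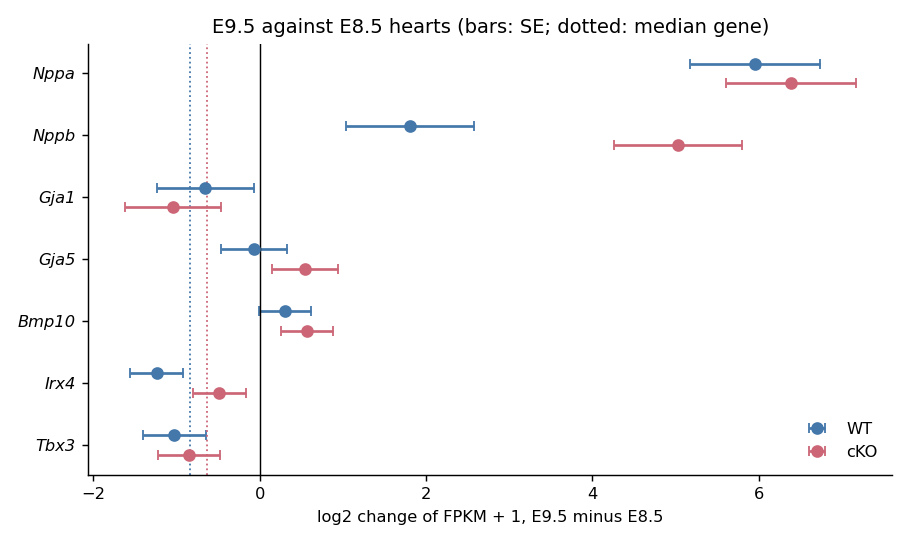
log2 change of FPKM + 1 from E8.5 to E9.5 (x axis) for the 7 tested members in WT (blue) and cKO (red), with bars for the limma SE and dotted lines for the median of all tested genes. *Nppa* stands at 5.96 and 6.39, *Nppb* at 1.81 and 5.03, and the other members stand within 2 units of the median gene.

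Markers of other cell types moved with some of these comparisons. The 6 listed epicardial markers summed to 25.7 to 42.5 FPKM in E9.5 WT and 13.2 to 14.0 in E9.5 cKO, with 4 to 6 and 4 of them above 1 FPKM, and to 10.5 to 22.3 at E8.5, where the genotypes overlapped. This list was lower in E9.5 cKO together with *Gja1*, *Gja5*, *Bmp10* and *Tbx3*, and its part in their values was not tested. Foregut endoderm markers summed to 197.5 to 302.0 in E9.5 WT and 434.4 to 474.6 in E9.5 cKO, most of it *Krt8*, with *Shh* and *Nkx2-1* at or near 0. *Epcam* of this list went the other way, at 15.1 and 13.5 in WT and 3.82 and 7.71 in cKO. Like the endothelial and cardiomyocyte sums, whose members also differed in direction, the summed value was higher in E9.5 cKO together with *Nppb*, *Irx4* and *Tbx2*, and its part in their values was not tested. The summed primitive erythroid markers overlapped between genotypes at both stages, at 7779 to 35490 at E8.5 and 14430 to 39580 at E9.5. Of this list *Hba-x*, *Klf1* and *Alas2* were higher in E9.5 cKO without overlap, the last at 3.94 and 9.18 FPKM in WT, against 20.8 and 14.3 in cKO, and their part in the higher *Nppb*, *Irx4* and *Tbx2* was not tested. The sum of the yolk sac endoderm markers overlapped too, at 573.8 to 4937 and 3124 to 5167, while *Amn* (20.5 and 19.6 against 33.4 and 31.4) and *Apoa4* of this list were higher in E9.5 cKO without overlap. None of the 6 neural and neural crest markers was above 1 FPKM in any library.

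Over the 8 libraries, with each library's median over tested genes taken off, *Nppa* varied together with *Bmp10* (Pearson r = 0.952) and *Nppb* (0.924), and *Gja1* with *Tbx3* (0.75). *Irx4* ran against *Gja1* (-0.805) and *Tbx3* (-0.786). These values describe 8 points that share their stage and genotype. The median taken off was 3.11 to 3.45 at E8.5 and 2.28 to 2.46 at E9.5. A gene with unchanged FPKM thus rises with stage on this scale, which enters these correlations. By the same measure the tested genes most like *Nppa* included *Sec14l1* and *Hk1* (both with r = 0.993), and those most like *Nppb* were *Ddr1*, *Ticam1* and *Tesc* (0.991, 0.989 and 0.984). *Sec14l1* was nearly level before the median was taken off, at 10.19 to 16.75 FPKM at E8.5 and 14.31 to 17.53 at E9.5. *Gja1* was followed most closely by *Lix1* (0.973) and *Stra6* (0.960), *Gja5* by *Abhd11os* (0.964), *Bmp10* by *Ldb3* (0.986), *Irx4* by *Acp5* (0.943) and the erythroid marker *Alas2* (0.935) and *Tbx3* by *Wfdc2* (0.930).

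Along the chromosomes, *Acp6*, 105142 bp from *Gja5*, was at 11.3 and 8.49 FPKM in E9.5 WT, against 15.7 and 14.9 in E9.5 cKO. *Clcn6*, 2184 bp from *Nppa*, was at 1.48 and 1.70 FPKM in E9.5 WT, against 3.31 and 2.43 in E9.5 cKO, and the gene on the other side of *Nppb*, 2510039O18Rik, stayed between 0.609 and 2.75 in all libraries. The closest neighbor of *Tbx2* was 2610027K06Rik, 226 bp away and at most 0.367 FPKM, and that of *Tbx3* was Tbx3os2, 363 bp away and listed at 0 in 6 of the 8 libraries. No listed feature overlapped a member, and whether reads were counted by strand is not given in the sources used here.

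Since DGCR8 is needed for the processing of most miRNAs, the members' 3′ UTRs (20 bases in *Bmp10* to 1929 in *Gja5*, in the GENCODE vM1 transcripts) were searched for matches to the seeds of 4 miRNAs named by the study or belonging to a family it names. Mature sequences are from RefSeq. The mature sequences of those with a match are shown with the seed, bases 2 to 8, in capitals, and each site, with its match in capitals, as DNA.
mmu-miR-541-5p: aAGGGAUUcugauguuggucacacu
mmu-miR-30a-5p: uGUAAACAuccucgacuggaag
*Gja5* site for mmu-miR-541-5p: gactgtagaaAATCCCTgcctt
*Tbx2* site for mmu-miR-541-5p: gtcactctggAATCCCTggatt
*Gja1* site for mmu-miR-30a-5p: gccaacgtggTGTTTACattat
The other members held no match to these seeds or to those of mmu-miR-26a-5p and mmu-miR-126a-3p. The seed of miR-1, the most abundant miRNA of the E9.5 heart in the study, was not searched. Nor were those of miR-133a and miR-378a, since the sources used here held no sequence for these miRNAs. Of 19915 genes with a 3′ UTR, 7.2% held the mmu-miR-541-5p match and 12.3% the mmu-miR-30a-5p match. Of the 3 members with a match, *Tbx2* was higher and *Gja1* and *Gja5* were lower in E9.5 cKO, each without overlap. *Nppa*, *Nppb* and *Irx4*, which were also higher in E9.5 cKO without overlap, held none. *Bmp10* and *Tbx3*, which were lower without overlap, held none either. Without overlap and at 1.5-fold, 8.63% of all tested genes were higher and 13.8% were lower.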

How the data were processed

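RNA was measured in 8 libraries of mouse embryonic hearts, grouped by the sample labels into E8.5 and E9.5, WT and cKO (n = 2 each, biological replicates by the study's methods). Total RNA was amplified by a Smart-seq protocol and sequenced on an Illumina instrument. Reads were mapped with BWA, and the submitters' processing notes name mm9. The authors deposited FPKM values, scaled to gene length and library total. The program that made them is not given in the sources used here. Coordinates are given on GRCm38, since 91.7% of 9513 genes shared with RefSeq by symbol had a table locus that started within 1000 bp of the GRCm38 one. All 8 columns of values were used (0 left out). Of 24930 entries, 285 symbols had several entries, of which the one with the highest mean FPKM was used, which left 24385 features. Absolute depth was unknown, so no count test or counting interval was made.

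The 10018 genes that averaged 1 FPKM or more were fitted as log2(FPKM + 1) in 1 limma model of the 4 groups (limma 3.58.1, R 4.3.3, moderated variances with a mean-variance trend, 4 residual degrees of freedom). Tests were two-sided and Benjamini-Hochberg adjusted over 10018 genes. A call needed an adjusted p under 0.05 and 1.5-fold change. Exact permutation tests compared the stages over both genotypes; with 2 against 2 libraries such a test cannot go below p = 0.333. The procedure was tested on simulated data. Alternatives were another pseudocount, no filter, 3 other scalings, no trend, fits of 2 groups only, a replicate block and leaving out each library.

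The genes named were the 8 members, the members of 7 lists (86 genes), the 3 genes with the most similar profile (SD of at least 0.5 over the libraries; not all are reported here), the nearest neighbors of each member, and *Dgcr8*. The members and lists were chosen with earlier results of these data known. The 3′ UTRs came from GENCODE vM1 transcripts (the longest per gene), and promoters and miRNAs from RefSeq tables, where 6 of the 8 members had a promoter entry.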

Additional observations from a re-analysis of the deposited data

How the results depend on the processing

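Of 523 comparisons of a member's log2 change with an alternative, 491 kept their direction and their side of the threshold, 10 lost a call, 2 gained one and 20 changed sign; the cause was not tested. Changes of sign were found in 9 of 33 member changes. *Nppa* between genotypes moved to -0.048 at E9.5 with quantile normalization and to 0.0057 at E8.5 with median-ratio scaling. With median-ratio and quantile scaling, *Irx4* moved to 0.20 and 0.19 between genotypes at E8.5 and to 0.21 and 0.28 between stages in cKO, and between stages in WT *Gja1* moved to 0.31 and 0.21 and *Gja5* to 0.83 and 0.90. Leaving out each library gave ranges that crossed 0 between genotypes at E8.5 for *Nppa* (-1.65 to 0.97), *Nppb* (-2.07 to 0.051) and *Irx4* (-0.45 to 0.19). They also crossed 0 between stages in WT for *Gja1* (-1.47 to 0.17), *Gja5* (-0.22 to 0.084) and *Bmp10* (-0.15 to 0.76), and in cKO for *Gja5* (-0.11 to 1.19). *Tbx3* was called lower between stages in WT when libraries were rescaled to the sum of longer loci (-1.22). Members called numbered 0 in every alternative between genotypes and in the interaction. Between stages in WT they numbered 1 in each case after median-ratio and quantile scaling, and 0 to 2 without each library. In cKO they numbered 0 to 3 without each library.

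Counts over all tested genes moved more. Between genotypes at E9.5 limma called 18 genes. It called 5 without the filter, 56 with median-ratio scaling, 31 after quantile normalization and 1 to 87 without each library. Fitted on these groups only it called 0 (1765 at an unadjusted p under 0.05). At E8.5 it called 1 gene, against 3 after quantile normalization and 0 to 50 without each library; it called 0 with a pseudocount of 0.1 (621 unadjusted) and 0 without the filter (781 unadjusted). Between stages in WT the count of 4823 became 390 with median-ratio scaling, 115 after quantile normalization and 32 to 6035 without each library. In cKO the count of 3062 became 1188 without the filter, 477 and 307 with these scalings, 1518 with only the groups compared, and 1 to 3157 without each library. In the interaction the count of 4 became 2 with a pseudocount of 0.1, 1 with the sum of longer loci and 0 to 28 without each library. It was 0 by limma without the filter (784 at an unadjusted p under 0.05), after quantile normalization (550) and without the trend (724). Averaged over stages it was 4, and 2, 9 and 8 without the filter and with these scalings, and 1 to 47 without each library. Genes without overlap numbered 413, 403 and 1982 at E8.5 with median-ratio, quantile and longer-loci scaling against 1236. Between stages they numbered 2689 and 2068 in WT against 6982, and 3484 and 3194 in cKO against 5502, with the median-ratio and quantile scalings.

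Deviations from group means of same-numbered libraries had correlations of -0.116 to 0.195 over 6 pairs of groups. With 2 libraries in each group these values cannot show whether same-numbered samples were paired. With the replicate number as a block, members called stayed at 2 and 2 between stages and at 0 in the other comparisons. The block took the count over all genes to 0 in the interaction (827 at an unadjusted p under 0.05) and to 2 averaged over stages. The absolute depth behind low values such as those of *Tbx2* is unknown.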
